A study of Mus musculus with 9 samples.

Results

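The genes described here are 10 regulators of naive pluripotency outside the Klf family: Nanog, Esrrb, Tfcp2l1, Prdm14, Nr5a2, Zfp42, Dppa5a, Tbx3, Nr0b1 and Dppa3. The data are sites of open chromatin near them, measured by ATAC-seq, in which a transposase tags accessible DNA, that the authors listed as changed when ERK was switched on in mouse embryonic stem cells. A site was taken when, among all protein-coding gene bodies, that of 1 of these genes lay closest to its centre and no more than 100 kb off. This gave 45 of the 19165 sites in the authors' deposited table, spread over 9 of the 10 genes, while Nr0b1 had 0 listed sites. The nearest gene is a way of naming a site and need not be the gene that the site acts on.

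Naive pluripotency is the state of the early epiblast before implantation, and mouse embryonic stem cells can be held in it by LIF together with blocks on GSK3 and on FGF and ERK signalling. A network of transcription factors keeps the state going, in which the products of Nanog, Esrrb, Tfcp2l1, Prdm14, Nr5a2 and Tbx3 act on each other's genes and on their own. ERK activity is known for letting cells leave this state. Zfp42, also called Rex1, Dppa3, also called Stella, and Dppa5a are best known as markers of it.

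The groups were E14tg2a cells (background strain 129SV) given 250 nM 4-hydroxytamoxifen (4OHT) for 1 h, the same cells given it for 2 h, and the same cells left untreated (0 h), with 3 libraries in each. All groups carried a stable cRAF-ErT2 cassette, which makes a RAF kinase joined to an estrogen receptor domain that 4OHT switches on, and no group lacked the fusion, so that effects of 4OHT itself and of ERK cannot be told apart. All were cultured in serum with LIF and 2 µM Chir99021, a GSK3 inhibitor, and for the last 24 h the medium held serum, LIF and PD173074, which blocks FGF receptors, at 250 nM. Titles give the libraries of each time the letters A, B and C, and the description fields tag those titled B as B2 and those titled C as B, so separate cultures are not established and the authors' p-values may measure technical spread.

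The authors' deposited table gives each site a mean level over 4OHT libraries and a mean level over control libraries, as log2 normalized reads. The 4OHT side pools 1 h and 2 h, as inferred from the levels, and neither a value per library nor the depth is known, so no spread between libraries can stand beside the values below. The only measure of error is the authors' FDR, which was 0.01 or less for every listed site. Each change is the 4OHT level minus the control level on the log2 scale. A lower level in such bulk libraries may mean fewer cells with an open site or a less open site in each cell, which cannot be told apart. The listed sites were about 7.86% of an estimated 243900 tested, a number worked out from the FDR and p-values on the assumption of a Benjamini-Hochberg adjustment.

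Of the 45 sites, 18 were higher after 4OHT (40.0%, exact Clopper-Pearson 95% interval 25.7 to 55.7%, for counting error only and with sites taken as independent) and 27 were lower. Over all listed sites, 52.6% were higher and 47.4% lower, and 54.6% were higher among the 16454 within 100 kb of a protein-coding gene. Both shares lie within the interval for the 45 sites. The median change over the 45 sites was -0.56, against 0.59 over all listed sites. Listed changes were 0.26 or more, or -0.31 or less, so the sign of this median only restates which direction had more sites. No test was made of the differences in share or median, since the genes were picked with results of these data known and sites of a gene share a locus.

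The 9 loci differed in direction more than the total shows. All sites were higher at Zfp42 (6 of 6), and all were lower at Prdm14 (6), Tfcp2l1 (5), Dppa5a (2) and Nanog (1). Sites of both directions lay at Nr5a2 (6 higher, 2 lower), Esrrb (3 higher, 4 lower), Tbx3 (2 higher, 5 lower) and Dppa3 (1 higher, 2 lower). A single direction is not rare: of the 667 genes with at least 5 listed sites, 139 (20.8%) had all of them in 1 direction, 86 higher and 53 lower.

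**Figure D1:**
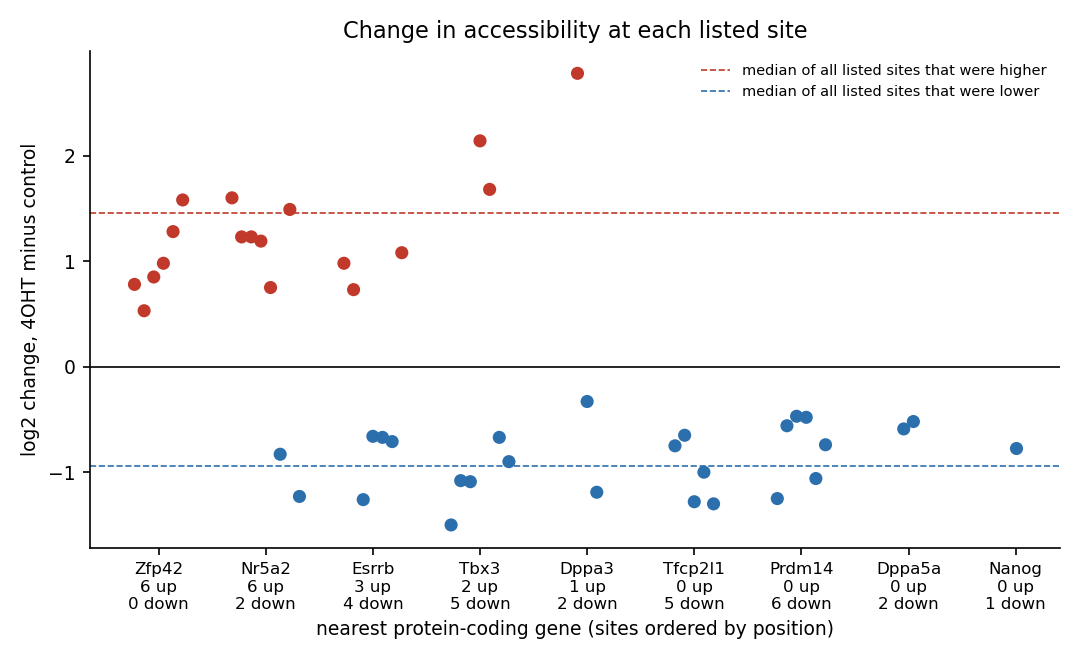
Log2 change (4OHT minus control) of each of the 45 listed sites, grouped by gene and ordered by position within it, with dashed lines at the medians of all listed higher (1.46) and lower (-0.94) sites. All 6 Zfp42 sites lie above 0 and all 6 Prdm14 and 5 Tfcp2l1 sites below it, while 4 genes have sites on both sides.

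Zfp42 encodes a zinc finger protein that marks the naive state and that stem cells can do without. Its gene lies at chr8:43295067-43307009 (mm10) on the minus strand, and 2 of its 6 sites were inside the gene and 4 upstream of its start. The promoters of Zfp42, Tfcp2l1 and Nanog are shown because these loci moved in opposite directions, or, at Nanog, because the gene is central to the network and had 1 site only. They run from 250 bases before to 50 after a start site, 5′ to 3′ on the gene's strand, from RefSeq (GRCm38.p6, the assembly that mm10 names), at chr8:43306960-43307259 (minus strand), chr1:118627695-118627994 (plus strand) and chr6:122707239-122707538 (plus strand, the first of 2 annotated starts). Capitals mark the octamer core ATGCAAA, the SOX motif ACAATG and the GC box GGGCGG, on either strand.
Zfp42: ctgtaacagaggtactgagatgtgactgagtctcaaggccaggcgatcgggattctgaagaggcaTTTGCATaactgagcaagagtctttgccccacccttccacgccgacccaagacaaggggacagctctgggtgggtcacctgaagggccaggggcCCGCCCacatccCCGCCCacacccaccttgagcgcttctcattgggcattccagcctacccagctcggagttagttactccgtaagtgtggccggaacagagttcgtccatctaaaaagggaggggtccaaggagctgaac
Tfcp2l1: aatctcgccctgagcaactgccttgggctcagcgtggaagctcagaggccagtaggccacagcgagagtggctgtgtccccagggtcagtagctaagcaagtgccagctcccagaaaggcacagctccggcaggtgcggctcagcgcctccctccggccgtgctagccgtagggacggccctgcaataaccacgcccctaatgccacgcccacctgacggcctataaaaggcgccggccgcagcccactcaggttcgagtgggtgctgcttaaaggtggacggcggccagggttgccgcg
Nanog: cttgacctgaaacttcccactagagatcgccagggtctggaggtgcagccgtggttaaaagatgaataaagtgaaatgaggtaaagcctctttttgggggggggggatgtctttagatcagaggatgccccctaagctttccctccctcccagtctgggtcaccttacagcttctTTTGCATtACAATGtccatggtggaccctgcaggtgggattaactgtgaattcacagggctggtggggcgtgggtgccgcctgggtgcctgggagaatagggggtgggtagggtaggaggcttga

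In the Zfp42 promoter the octamer core began 185 bases before the start, and 2 GC boxes began 91 and 79 bases before it. The Nanog promoter held the octamer core 75 and the SOX motif 67 bases before this start, separated by a single base. None of the motifs searched was found in the Tfcp2l1 window, and AP-1 (TGANTCA), ETS (CCGGAAG) and the nuclear receptor half-site AAGGTCA were found in none of these 3 windows. The octamer and SOX motifs were chosen after the sequences were seen. The octamer core is in 4.63% of the 32851 RefSeq promoters, the SOX motif in 12.6%, the GC box in 35.7%, and AP-1, ETS and the half-site in 7.81%, 8.86% and 4.72%. A match describes letters and is not a binding site, and no match speaks only of this window.

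No listed site overlapped a promoter window of the 6 genes that the promoter table holds (Zfp42, Tfcp2l1, Nanog, Esrrb, Nr5a2 and Nr0b1). The nearest edge of a listed site was 670 bases from the Tfcp2l1 window, 2466 bases from that of Zfp42 and 12375 bases from that of Nanog. Sites that missed the FDR limit are not in the list used here, so changes inside these windows below that limit cannot be seen.

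At Zfp42, the sites farther upstream gained more on the log2 scale, but not in reads. In the authors' deposited table, the site inside the gene at chr8:43304177-43304493, 2674 bases downstream of the start, had a level of 8.56 in 4OHT libraries and 8.03 in control libraries (change 0.53, authors' FDR 0.00776). The other inner site, at chr8:43298502-43298658, had 7.99 in 4OHT libraries and 7.21 in control libraries (change 0.78, FDR 3.52e-04). These were the smallest gains of the locus, both under 2-fold.

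Upstream, the first site at chr8:43311023-43311229, 4117 bases from the start, had 7.12 in 4OHT libraries and 6.27 in control libraries (change 0.85, FDR 0.00666). The most open site, at chr8:43331577-43332215 and 24887 bases upstream, had 9.89 in 4OHT libraries and 8.91 in control libraries (change 0.98, FDR 1.76e-06 in the authors' deposited table, the smallest at Zfp42). That is 949 normalized reads after 4OHT against 481 in control, a gain of 468 reads that was the largest of the locus on the linear scale.

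The 2 most distant sites had the largest log2 gains at Zfp42. At chr8:43338615-43338978, 31787 bases upstream, the authors' deposited table gives 8.65 in 4OHT libraries and 7.37 in control libraries (change 1.28, FDR 2.94e-05). At chr8:43359197-43359653, 52416 bases upstream, it gives 7.19 in 4OHT libraries and 5.61 in control libraries (change 1.58, a 2.99-fold gain, FDR 9.52e-05). Over the 4 upstream sites the log2 change thus increased with every step away from the gene, in a series too short for a correlation. In normalized reads the gains were 61.9, 468, 236 and 97.2 in the same order, with no such increase. Control levels were 6.27, 8.91, 7.37 and 5.61, and the control level enters the change, so distance and level cannot be told apart here. Summed over the 6 sites, which cover 2141 bp, normalized reads were 2267 in 4OHT libraries and 1182 in control libraries, 91.8% more after 4OHT.

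Prdm14 encodes a zinc finger protein that in mouse stem cells holds down FGF receptor and DNA methyltransferase genes. All 6 of its sites were less open after 4OHT, and none lay inside the gene at chr1:13113428-13127163. In the authors' deposited table, the most open of all 45 sites was 1 of them, at chr1:13084579-13085619, with 11.06 in 4OHT libraries and 11.53 in control libraries (change -0.47, FDR 0.00533). It fell by 822 normalized reads, to 2135 in 4OHT libraries against 2957 in control libraries, although its log2 change was the smallest in size at this locus.

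The neighbouring wide sites of Prdm14 moved by similar amounts. At chr1:13094134-13096445, the widest of the 45 at 2312 bp, the authors' deposited table gives 9.96 in 4OHT libraries and 10.44 in control libraries (change -0.48, FDR 0.00646). At chr1:13073962-13075063 it gives 9.67 in 4OHT libraries and 10.23 in control libraries (change -0.56, FDR 0.00155). These 3 sites lay 18.1 to 38.9 kb beyond the lower-coordinate end of the gene.

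The other 3 Prdm14 sites were less open before 4OHT and lost more on the log2 scale. The control level enters the change, so level and loss are not independent. In the authors' deposited table the narrow site at chr1:13071448-13071609 had 6.10 in 4OHT libraries and 7.35 in control libraries (change -1.25, FDR 5.02e-05). A pair of sites sat at the upper-coordinate end of the gene, 275 bases apart. The nearer, at chr1:13127924-13128276 with its centre 937 bases from the gene, had 7.90 in 4OHT libraries and 8.96 in control libraries (change -1.06, FDR 3.51e-06). Its partner at chr1:13128552-13128900 had 7.49 in 4OHT libraries and 8.23 in control libraries (change -0.74, FDR 6.77e-04 in the authors' deposited table). Over the 6 sites, which cover 5319 bp, normalized reads summed to 4433 in 4OHT libraries and 6509 in control libraries, a change of -31.9%.

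Tfcp2l1 encodes a CP2-family factor that acts downstream of LIF and STAT3. Its 5 sites were all lower, with 3 inside the gene at chr1:118627923-118685168. The most open, at chr1:118625368-118627024, ended 670 bases before the promoter window shown above, and in the authors' deposited table it had 10.39 in 4OHT libraries and 11.14 in control libraries (change -0.75, FDR 0.00152). It fell by 915 normalized reads, the largest loss among the 45 sites on the linear scale.

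Inside Tfcp2l1, the site at chr1:118633605-118634210 had 8.02 in 4OHT libraries and 8.67 in control libraries in the authors' deposited table (change -0.65, FDR 0.00549). The site at chr1:118674218-118674631 had 6.95 in 4OHT libraries and 7.95 in control libraries (change -1, FDR 0.00666). The one at chr1:118662994-118663462 had 6.09 in 4OHT libraries and 7.37 in control libraries (change -1.28, FDR 1.46e-04, the smallest of the locus). As at Prdm14, the 3 sites that were least open in control libraries, counting the one described next, had the largest log2 losses. Here too the control level enters the change, so the relation is not given as a result about either locus.

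The last Tfcp2l1 site, at chr1:118710773-118710972 and 25704 bases beyond the gene, was the least open, with 5.02 in 4OHT libraries and 6.32 in control libraries (change -1.30, FDR 6.09e-04 in the authors' deposited table). Over the 5 sites, covering 3346 bp, reads summed to 1826 in 4OHT libraries and 3157 in control libraries, a change of -42.2%.

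Set side by side, the changes were 0.53 to 1.58 at Zfp42, -1.25 to -0.47 at Prdm14 and -1.30 to -0.65 at Tfcp2l1. Ranges of all higher and all lower sites cannot overlap, so this restates the directions. Of the 667 genes with at least 5 listed sites, 139 (20.8%) had a single direction. The control levels overlapped, at 5.61 to 8.91, 7.35 to 11.53 and 6.32 to 11.14 in the order Zfp42, Prdm14 and Tfcp2l1. These loci were set against each other because earlier results of these data showed the contrast, so no test is given.

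**Figure D2:**
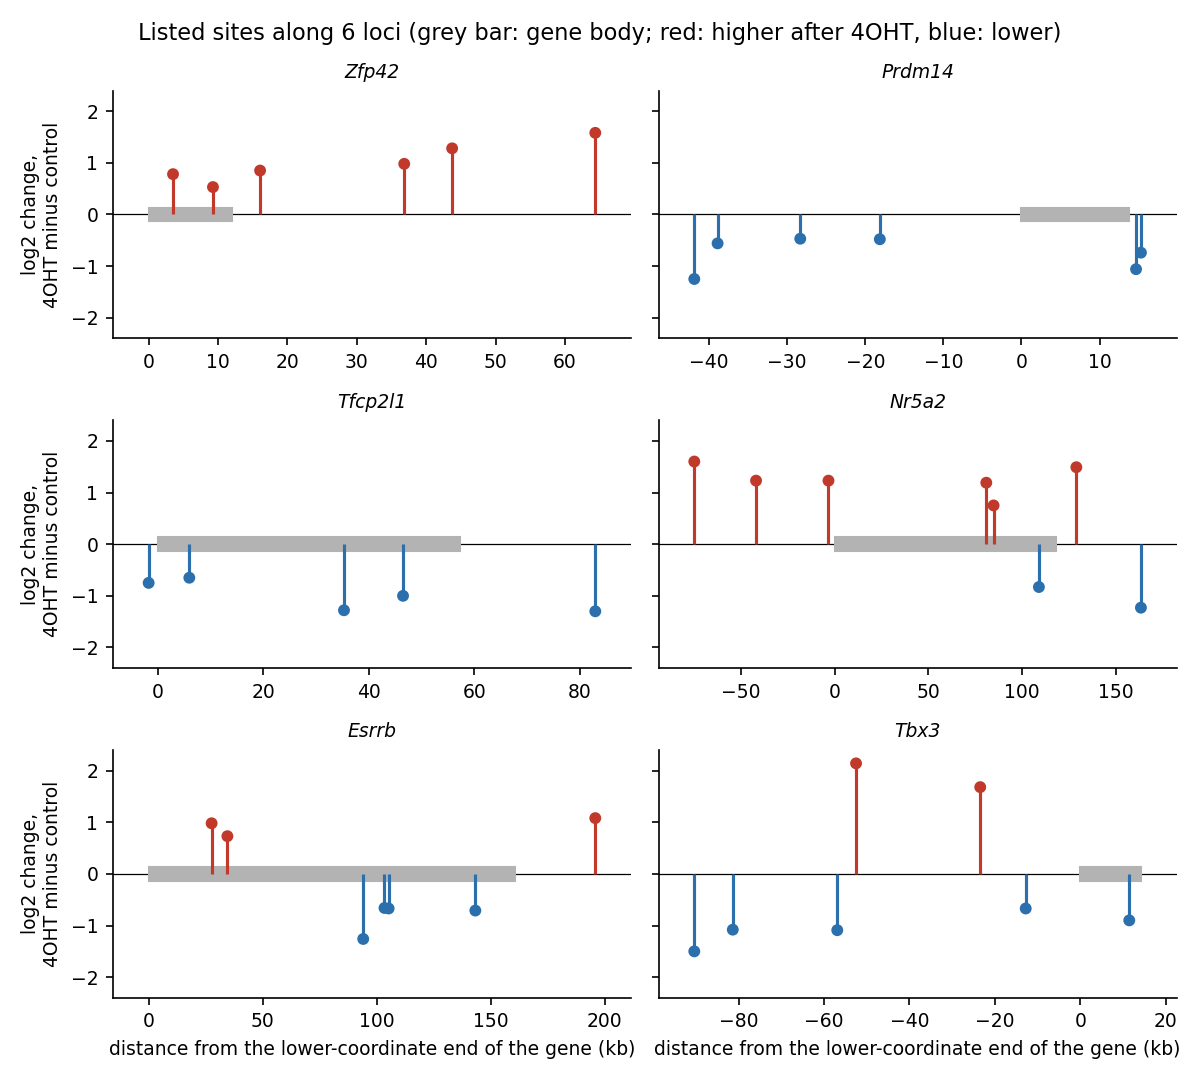
Log2 change (4OHT minus control) of listed sites against distance in kb from the lower-coordinate end of each gene at 6 loci, with the gene body as a grey bar. The log2 changes of the 4 Zfp42 sites beyond the gene grow from 0.85 to 1.58 with distance, though their gains in reads do not. Esrrb has higher sites on either side of 4 lower ones, and 2 higher sites stand among 5 lower ones at Tbx3.

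Nr5a2, which encodes an orphan nuclear receptor that binds the Pou5f1 gene, had the most sites of the 10 genes. Its gene, at chr1:136842562-136960448 on the minus strand, held 3 of the 8. The 6 higher sites spanned the locus from beyond its 3′ end to 11009 bases upstream of its first start, and their changes were 0.75 to 1.60. The largest, at chr1:136767668-136767890, had 6.04 in 4OHT libraries and 4.44 in control libraries (change 1.60, FDR 2.42e-04 in the authors' deposited table). The one with the smallest FDR, at chr1:136838978-136839651 and 3248 bases beyond the 3′ end, had 8.33 in 4OHT libraries and 7.10 in control libraries (change 1.23, FDR 1.63e-04).

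The 2 lower Nr5a2 sites stood on both sides of a higher one. The site inside the gene at chr1:136951308-136951685 was the most open of the locus before 4OHT, with 8.41 in 4OHT libraries and 9.24 in control libraries (change -0.83, FDR 0.00473 in the authors' deposited table). It lay 2134 bases downstream of the second annotated start. The site at chr1:137005802-137005955, 45430 bases upstream of the first start, had 5.17 in 4OHT libraries and 6.40 in control libraries (change -1.23, FDR 0.00585). Between them, 19961 bases from the first and 34421 from the second, a higher site at chr1:136971210-136971704 changed by 1.49 (FDR 3.04e-04), which is named here for its place. Control levels were 4.10 to 7.10 at the higher sites and 6.40 and 9.24 at the lower ones.

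Esrrb encodes an orphan nuclear receptor that is known as a target of the GSK3 pathway in stem cells. Its 7 sites fell into 3 runs along chr12:86361117-86521628, a gene on the plus strand. The first run was 2 higher sites inside the gene, 27620 and 34540 bases from its lower-coordinate end, which changed by 0.98 and 0.73 in the authors' deposited table. Next came 4 lower sites, also inside, with changes of -1.26, -0.66, -0.67 and -0.71. A higher site 35382 bases beyond the gene came last.

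The lower Esrrb site with both the smallest FDR and the largest change, at chr12:86454943-86455508, had 7.45 in 4OHT libraries and 8.71 in control libraries (change -1.26, FDR 7.68e-10 in the authors' deposited table). This FDR was the smallest of all 45 sites. The higher site with both, at chr12:86556559-86557461, had 9.53 in 4OHT libraries and 8.45 in control libraries (change 1.08, a 2.11-fold gain, FDR 3.03e-05).

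Unlike at Zfp42 or Prdm14, gains and losses at Esrrb nearly cancelled in reads. The widest higher site, at chr12:86394913-86396401, gained 625 normalized reads and the most open lower site, at chr12:86503795-86505010, fell by 683, both named after their values were seen. Summed over the 7 sites, covering 5789 bp, reads were 4466 in 4OHT libraries and 4723 in control libraries, a change of -5.44%. At Nr5a2 the sum over 3395 bp was 1148 in 4OHT libraries and 1034 in control libraries, 11% more.

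Tbx3 encodes a T-box factor that supports self-renewal. Of its 7 sites, 6 lay at lower coordinates than the gene at chr5:119670534-119684724, out to 90391 bases, and 1 inside it. The most distant lower site, at chr5:119579744-119580542, had 8.04 in 4OHT libraries and 9.54 in control libraries (change -1.50, FDR 1.01e-05 in the authors' deposited table), which was the largest log2 loss of the 45 sites. The other 4 lower sites changed by -1.09 to -0.67, and the one inside the gene by -0.90.

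The 2 higher Tbx3 sites stood among the lower ones. The site at chr5:119617819-119618215 had 7.08 in 4OHT libraries and 4.94 in control libraries (change 2.14, a 4.41-fold gain, FDR 2.50e-05 in the authors' deposited table). Its centre was 4396 bases from that of a lower site, at chr5:119613417-119613825, which changed by -1.09 (FDR 2.86e-04) and is named for this nearness. The other higher site, at chr5:119646861-119647332, changed by 1.68 (FDR 0.00260 in the authors' deposited table).

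Levels at Tbx3 were closer together after 4OHT than in control. The higher sites were at 6.95 and 7.08 in 4OHT libraries, within the 6.76 to 8.04 of the lower sites there. In control libraries the higher sites were at 4.94 and 5.27, below the 7.85 to 9.54 of the lower sites. The same held in the whole list, where higher and lower sites had median levels of 7 and 6.89 in 4OHT libraries and of 5.43 and 7.83 in control libraries. Sites are called higher or lower from these same levels, so such a pattern can follow in part from the sorting. The pattern was not tested. Levels also spanned less after 4OHT at Nr5a2 (5.17 to 8.41, against 4.10 to 9.24 in control), at Dppa3 (5.58 to 10.55, against 2.80 to 10.88 in control), at Esrrb (7.43 to 10.62, against 6.45 to 10.78 in control) and at Zfp42 (7.12 to 9.89, against 5.61 to 8.91 in control), but not at Prdm14, Tfcp2l1 or Dppa5a.

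**Figure D3:**
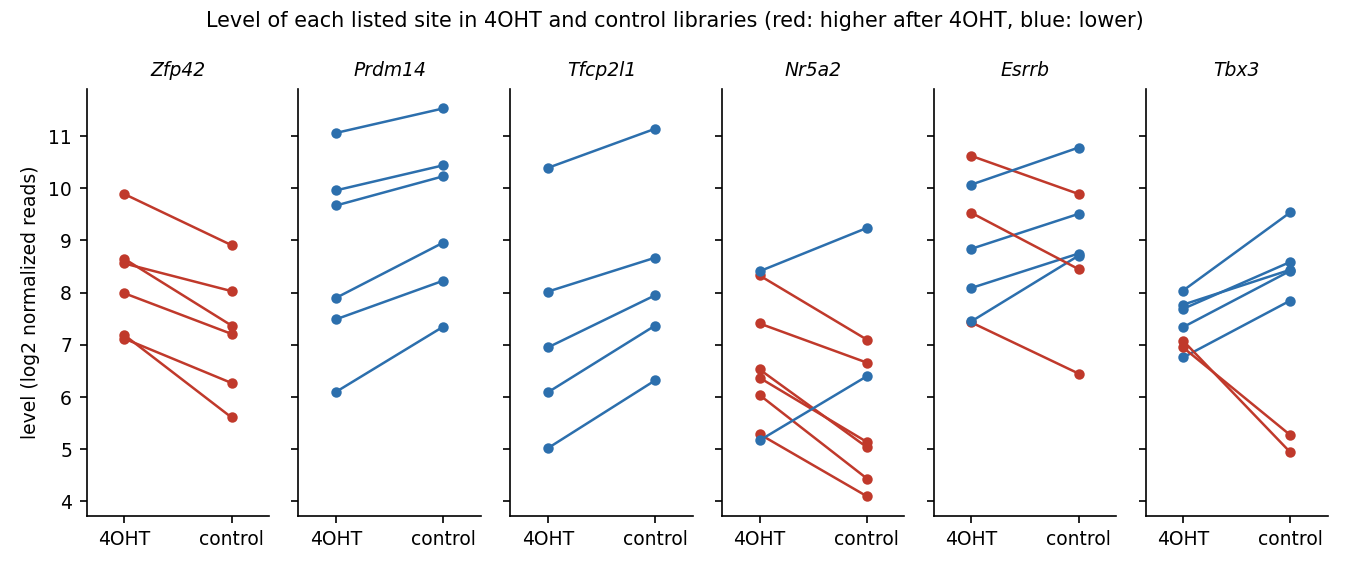
Level (log2 normalized reads) of each listed site in 4OHT libraries on the left and control libraries on the right of each panel, joined by a line, red where higher after 4OHT and blue where lower. At Tbx3 all 7 sites lie between 6.76 and 8.04 after 4OHT, against 4.94 to 9.54 in control, a narrowing also seen at Nr5a2, Esrrb and Zfp42. Direction is set by these same levels, and the narrowing was not tested. At Zfp42, Prdm14 and Tfcp2l1 all lines run the same way.

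Dppa3 and Nanog are neighbours on chromosome 6. Dppa3 encodes a maternal protein that shields DNA methylation in the zygote, and its site at chr6:122635406-122635548, 5206 bases outside the gene, had the largest change of the 45. In the authors' deposited table it had 5.58 in 4OHT libraries and 2.80 in control libraries (change 2.78, a 6.87-fold gain, FDR 4.05e-05), and it exceeded 96.0% of all listed higher sites. It was also the narrowest, at 143 bp, and its control level stands for 6.96 normalized reads, so its fold rests on a site nearly closed in control.

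The other 2 Dppa3 sites were lower and lay side by side, 337 bases apart. The site at chr6:122662409-122663459 had 10.55 in 4OHT libraries and 10.88 in control libraries (change -0.33, FDR 0.00672 in the authors' deposited table), the smallest change of the 45. The site at chr6:122663797-122664132 had 6.83 in 4OHT libraries and 8.02 in control libraries (change -1.19, FDR 4.33e-06). Although given to Dppa3, they were 44.6 and 43.5 kb upstream of Nanog, within its 100 kb window too.

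Nanog, the homeobox factor of the network, had a single site of its own, at chr6:122694143-122694863 and 12986 bases upstream of its first start. It had 7.17 in 4OHT libraries and 7.94 in control libraries (change -0.77, FDR 0.00685 in the authors' deposited table). Counting every listed site within 100 kb of Nanog, whatever gene is nearest, there were 4 lower sites and 1 higher. The fourth lower site, inside the glucose transporter gene Slc2a3 at chr6:122769950-122771112, changed by -0.54 (FDR 0.00933).

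Dppa5a encodes a stem cell protein with a KH domain, a fold known to bind RNA. Both of its sites were lower and outside the gene, at chr9:78367052-78368199. The site at chr9:78368784-78369797, its centre 1091 bases away, had 9.86 in 4OHT libraries and 10.38 in control libraries (change -0.52, FDR 0.00234 in the authors' deposited table). The one at chr9:78359578-78360107 had 8.35 in 4OHT libraries and 8.94 in control libraries (change -0.59, FDR 2.03e-04). The gene table lists the pseudogenes Dppa5b and Dppa5c on the same chromosome, and no source used here says what was done with reads that match more than 1 copy. It also lists Zfp42-ps1, Nanog-ps1, Nanog-ps2 and Dppa3-ps on other chromosomes. The same limit thus holds for Zfp42, with 2 sites inside the gene, and for Nanog and Dppa3.

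Nr0b1, on the X chromosome, encodes an atypical nuclear receptor also called Dax1. It had 0 listed sites within 100 kb, under its own name or another. That does not show that its chromatin was unchanged, since sites that missed the FDR limit are not in the list used here.

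Compared with all listed sites, the 45 had higher median levels in control libraries. The median control level was 6.36 at the 18 higher sites, against 5.43 at all listed higher sites, and 8.71 at the 27 lower sites, against 7.83 at all listed lower sites. After 4OHT the medians were 7.30 and 7.90 for the 18 and 27 sites, against 7 and 6.89 for all listed ones.

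Changes at the 45 sites were somewhat smaller than in the list at large. The median was 1.21 over the 18 higher sites, against 1.46 over all listed higher sites, and -0.77 over the 27 lower sites, against -0.94 over all listed lower sites. Listed sites with control levels near the medians of these sites had median changes nearer to theirs. They were 1.25 for the 1614 higher sites within 0.5 of a level of 6.36, and -0.84 for the 2161 lower sites within 0.5 of 8.71. Only 3 of the 18 higher and 9 of the 27 lower sites fell in these ranges. The match is thus to the median level alone, and whether level accounts for the smaller changes was not tested. Changes reached 1 or more in size at 11 of the 18 higher sites (61.1%, against 77.6% of all) and 11 of the 27 lower sites (40.7%, against 42.5% of all). None of these differences was tested.

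**Figure D4:**
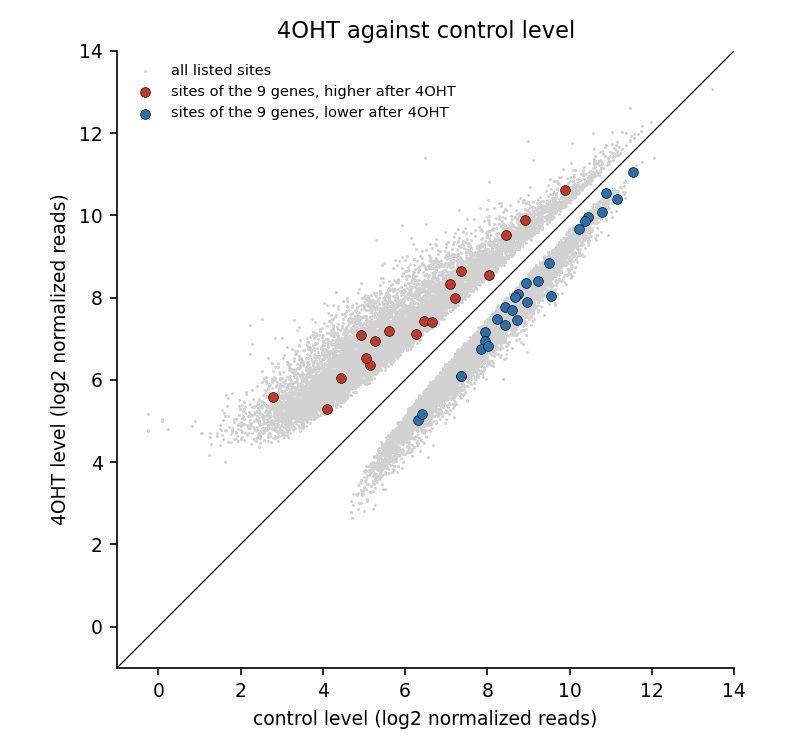
Level in 4OHT libraries against level in control libraries (log2 normalized reads) for all 19165 listed sites in grey and the 45 sites of the 9 genes in red (18 higher after 4OHT) and blue (27 lower), with a line of equality. The empty band along the line reflects the FDR limit of the list, and the blue points reach a control level of 11.53, above 99.9% of all listed sites.

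Most of the sites lay outside the genes. Inside the gene body were 15 of the 45 (33.3%), 6 higher and 9 lower, against 49.2% of all listed sites inside their nearest gene. Among listed sites within 100 kb of a protein-coding gene, as the 45 are by rule, 57.3% were inside. Measured from the site centre, 1 site was within 1 kb of an end of its own gene, the lower one at Prdm14 (2.22%). Wide sites with centres farther off, as at Tfcp2l1 and Dppa5a, can have an edge within 1 kb. The share was 4.02% of all listed sites and 4.68% of those within 100 kb of a protein-coding gene. The median width was 428.5 bp at higher and 566 bp at lower sites, and 408 and 557 bp in the whole list.

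Neighbouring sites of a gene moved together in most pairs, here and in the whole list. Of the 36 pairs of neighbours that share 1 of these genes, 28 (77.8%) had the same direction, against 64.3% of 8569 such pairs in the whole list. Among the 28 are all pairs at Zfp42 (5), Prdm14 (5) and Tfcp2l1 (4), which follow from the single direction of those loci. The higher share here comes from these 3 loci. Elsewhere the pairs of the same direction were 4 of 7 at Nr5a2, 4 of 6 at Esrrb and 4 of 6 at Tbx3. They were 1 of 2 at Dppa3 and 1 of 1 at Dppa5a. Earlier results of these data had singled out the 3 loci for that contrast, so the difference from the whole list was not tested. The 8 opposite pairs were at Nr5a2 (3), Esrrb (2), Tbx3 (2) and Dppa3 (1).

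Within 100 kb of the 10 genes, 6 more listed sites had a gene outside the group as the nearest. Beside Tfcp2l1, a site inside Clasp1 changed by 1.68, opposite to all 5 Tfcp2l1 sites. Beside Prdm14, the 2 sites nearest Slco5a1, over 90 kb away, changed by -1.32 and 1.59. A site nearest Ooep, beside Dppa5a, changed by -0.95 in the authors' deposited table, that in Slc2a3 by -0.54 as given above, and one inside Apobec1, beside Dppa3, by 1.03. With these included, 21 sites were higher and 30 lower.

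The 100 kb limit decided little: the farthest site inside it was the Tbx3 site at 90391 bases, and the next sites with 1 of the 10 genes as the nearest lay 430.1 kb from Nr5a2 and 430.5 kb from Tbx3, with changes of 1.80 and 1.76.

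Other genes of the network also had sites of both directions. Of 13 further naive and LIF pathway genes, 9 had a listed site, as did 7885 of all 21900 protein-coding genes. These 9 genes had 12 higher and 17 lower sites (median change -0.52). That is 41.4% higher, against 54.6% of listed sites within 100 kb of a protein-coding gene. Both directions occurred at Lifr (2 higher, 2 lower), Il6st (2 higher, 1 lower), Tet2 (2 higher, 3 lower) and Sall4 (1 higher, 3 lower). Klf5, a Kruppel-like factor gene, had 5 higher sites (0.60 to 2.19), whereas Klf2 and Klf4 had 1 lower site each (-0.52 and -0.47). Socs3, which encodes a feedback inhibitor of LIF signalling, had 4 lower sites (-0.95 to -0.67), and Fgf4, the ligand gene, had 2 (-0.80 and -0.71).

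Genes of general pluripotency had 4 higher and 2 lower sites, among them 1 higher site each at Pou5f1 (0.59) and Sox2 (1.48). That is 66.7% higher of 6 sites only, beside 54.6% of listed sites within 100 kb of a protein-coding gene. Formative and primed epiblast genes had 3 higher and 9 lower sites (25% higher), of which Otx2, a homeobox gene of the epiblast, held 5 lower ones and Foxd3 2. Pou3f1 had 1 higher site (2.15), and Sox4 (2.42 and -0.69) and Dnmt3a (1.62 and -0.60) had 1 site in each direction. For the pathway itself, ERK feedback and target genes had 42 higher and 4 lower sites (91.3% higher), with all 11 at Spry4, a feedback inhibitor gene, higher. The 4 lower sites were both sites of Dusp6, an ERK phosphatase gene (-0.85 each), and 1 site each at Spry2 (-0.86) and Etv5 (-0.85). The 46 sites of this last list came from 9 genes, with 11 at Spry4 and 9 at Phlda1, and sites of a gene share a locus. These lists were described and not tested.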

How the data were processed

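Per the submitters' processing notes, MACS2, Bowtie2 and bedtools were used with build mm10, and what each did is not stated there. No source used here gives the differential test, the normalization, the read filters or the handling of Tn5 offsets. Levels are log2 normalized reads, as means over libraries, in the authors' deposited table, together with a log2 fold, a p-value and an FDR per site, per the file headers. The authors' fold is control minus 4OHT and equals the difference of the deposited levels to within 0.01 log2. The mean over all 9 libraries equalled a mean of control and 4OHT reads weighted 3 to 6, to within 0.00986 log2, from which the pooling of 1 h and 2 h was inferred.

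Each site centre was given to the nearest of 21900 protein-coding gene bodies in a RefSeq table of GRCm38.p6, in which all 10 genes were found, with no ties at the 45 sites. Start sites and strand came from the RefSeq promoter table, which holds 6 of the 10 genes. The table does not separate exons from introns or UTRs. The gene assignment was tested on simulated sites. No differential test was refitted, and the test per library that had been planned could not be made from means. The genes and lists were chosen with earlier results of these data known.

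All sites of a locus with 6 or fewer are given in full. In larger loci, the sites given in full are those with the smallest FDR and the largest change in each direction and any with its centre within 1 kb of the gene's end. Alternatives were other windows, gene types and distances, a stricter FDR, limits on change or level, 1 locus left out, 1 site per gene (by the smallest p-value or, added after seeing the data, the largest change) and the authors' fold column. Scripts ran in Python 3.11.15 with numpy 2.4.6, matplotlib 3.10.9, scipy 1.17.1 and pandas 2.3.3.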

Additional observations from a re-analysis of the deposited data

How the results depend on the processing

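The share of higher sites stayed within the counting interval of its value (25.7 to 55.7%) in every alternative except with 1 site per gene chosen by the smallest p-value, where 2 sites were higher and 7 lower (22.2% higher, median change -1.06). With 1 site per gene chosen by the largest change in size, an alternative added after seeing the data, 4 were higher and 5 lower (44.4% higher, median change -0.59). With a change of at least 1 in size, 11 sites were higher and 11 lower, and the median turned to 0.04. With an FDR under 0.001, 10 were higher and 12 lower, since fewer sites were counted. Lower sites fell to 17 within 25 kb and to 15 with the nearest gene of any type, where lncRNA genes and pseudogenes took 17 of the 45 sites. Per locus, the sign of higher minus lower sites was the same in 95 of 103 alternatives run, including all of those at Zfp42, Prdm14, Tfcp2l1 and Nr5a2. Many of these outcomes were fixed in advance, so the count is no measure of robustness. Where all sites of a locus had the same direction, as at Zfp42, Prdm14 and Tfcp2l1, no subset of them could turn the sign. Leaving out Nr5a2 could not alter another locus, and the authors' fold column holds nearly the same values. The sign was 0 in 4, at Esrrb and Dppa3 with an FDR under 0.001 or a change of at least 1, and turned to 1 at Dppa3 within 25 kb, and at Dppa3 and Tbx3 with the site of largest change. It also turned to 1 at Dppa3 with the nearest gene of any type. No value could be had at Nanog with the last of these, an FDR under 0.001 or a change of at least 1, nor at Dppa5a with a change of at least 1. With centres within 2 kb of a gene end in place of 1 kb were 4 sites, against 1, and within 50 kb, 3 of the 6 sites nearest other genes remained. No paired analysis was possible because the table used here gives means and no value per library, and for the same reason no library could be left out. Depth per library is unknown, so how far it limits these calls cannot be given.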

Other observations

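Marker genes of cell types that a stem cell culture could hold showed no common direction in the authors' deposited table. Of 5 embryonic stem cell markers (Pou5f1, Sox2, Nanog, Zfp42 and Esrrb), all had a listed site, with 11 higher and 5 lower sites, of which 14 are sites of Zfp42, Esrrb and Nanog described above. Of the 11 higher sites, 6 were those of Zfp42. Of 7 fibroblast markers, 3 had a site, with 3 higher and 3 lower sites, all 3 higher ones at Twist2. Of 7 primitive endoderm markers, 4 had a site, with 1 higher site, at Foxa2, and 4 lower sites, among them 1 at Gata6 (-1). All 5 trophectoderm markers had a site, with 8 higher and 4 lower sites, and the 4 of Gata3 were all higher (1.06 to 3.03). In this order, the shares of higher sites were 68.8%, 50%, 20% and 66.7%, over 16, 6, 5 and 12 sites. Of all listed sites within 100 kb of a protein-coding gene, 54.6% were higher, and 7885 of 21900 such genes had a listed site. With so few sites and loci, these counts are not read as a result about the markers. A list of sites that passed cannot show whether a marker gene was open or closed, so the labelled cell type was not checked by it, and the part of other cell types in the changes at the 45 sites was not tested.

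The gene table places the lncRNA gene Tbx3os1 nearest to 4 of the 7 Tbx3 sites when genes of any type are allowed, and the lncRNA gene AW549542 nearest to 2 more. At Prdm14, the lncRNA gene Gm39592 and the pseudogene Gm5250 were nearest to 2 sites each.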
